A study of Homo sapiens with 9 samples.

Results

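The genes described here encode coagulation factors, components of fibrinolysis and serpins, the family of serine protease inhibitors that holds most brakes on both systems. They are 45 gene symbols chosen by name from 27800 symbols in a table of transcript abundance, and all 45 were listed there. Of these, 37 reached 1 TPM, a measure of transcript abundance corrected for length and scaled to the same total in every library, in at least 3 of the 9 libraries and entered the tests, among 13573 genes in all. RNA was sequenced from Huh7, an established line of human hepatocellular carcinoma cells, after 48 h with 0.5 uM JQ1 (3 libraries), after 48 h with 5 uM FIDAS-5 (3 libraries) or with vehicle (3 libraries). JQ1 binds BET bromodomain proteins, which read acetylated histones, and FIDAS-5 inhibits MAT2A, the enzyme that makes S-adenosylmethionine. All cells were grown in the same serum-containing medium, the labels name no genetic change in any group, and the labels give neither the vehicle's identity nor its exposure time. The study asked how the transcriptome of these cells differs with either inhibitor.

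The liver makes most circulating coagulation factors and their inhibitors. Injury exposes tissue factor, which with factor VII activates factor X, and factor X with its cofactor factor V converts prothrombin to thrombin, which cleaves fibrinogen to fibrin. Several of these proteases need a vitamin K-dependent modification to bind membranes. Antithrombin and other serpins trap the proteases, protein C with protein S inactivates the cofactors, and plasmin, made from plasminogen, dissolves the clot. Liver-enriched transcription factors, HNF4 among them, are known to act at many of these promoters.

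Promoter letters are shown because several members hold the same short sequence near their start. Windows of 300 bases, 250 before and 50 after a RefSeq start on build GRCh38.p14, were found for 39 of the 45 members. The exceptions were F2R, PLAT, SERPINC1, SERPINF1, SERPINF2 and THBD. The letters GTTAAT, searched on both strands, were in a window of 12 of the 39 members (30.8%), against 8.27% of all 27305 genes with a window. The first 260 bases of 5 of these windows are given with these letters in capitals, as GTTAAT or as its reverse complement ATTAAC. They belong to F2 (chr11:46718963-46719222, plus strand), PROC (chr2:127418177-127418436, plus strand), SERPINA4 (chr14:94561192-94561451, plus strand), SERPINA7 (chrX:106038718-106038977, minus strand) and SERPINA1 (chr14:94388593-94388852, minus strand). The SERPINA7 window holds the letters at 2 places, and SERPINA1 and PROC have 2 RefSeq windows each, of which the one with the letters is shown. None of these matches overlapped another motif searched.
F2: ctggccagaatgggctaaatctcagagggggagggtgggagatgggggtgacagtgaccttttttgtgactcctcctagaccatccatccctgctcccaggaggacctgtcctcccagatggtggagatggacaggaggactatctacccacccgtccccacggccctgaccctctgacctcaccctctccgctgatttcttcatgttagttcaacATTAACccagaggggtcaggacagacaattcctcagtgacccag
PROC: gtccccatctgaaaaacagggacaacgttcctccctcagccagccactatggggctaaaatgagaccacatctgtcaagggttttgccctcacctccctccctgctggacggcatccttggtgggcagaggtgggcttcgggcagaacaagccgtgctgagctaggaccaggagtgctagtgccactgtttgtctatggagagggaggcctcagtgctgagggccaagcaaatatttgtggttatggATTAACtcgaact
SERPINA4: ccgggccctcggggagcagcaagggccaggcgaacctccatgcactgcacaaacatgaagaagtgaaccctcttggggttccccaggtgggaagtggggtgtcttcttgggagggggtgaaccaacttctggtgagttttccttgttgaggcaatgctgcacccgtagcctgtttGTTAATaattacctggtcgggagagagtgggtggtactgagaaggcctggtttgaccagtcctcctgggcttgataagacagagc
SERPINA7: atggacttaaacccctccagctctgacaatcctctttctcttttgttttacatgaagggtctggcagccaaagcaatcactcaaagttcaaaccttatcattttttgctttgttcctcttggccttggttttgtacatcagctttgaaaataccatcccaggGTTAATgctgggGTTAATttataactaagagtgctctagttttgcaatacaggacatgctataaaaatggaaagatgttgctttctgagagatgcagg
SERPINA1: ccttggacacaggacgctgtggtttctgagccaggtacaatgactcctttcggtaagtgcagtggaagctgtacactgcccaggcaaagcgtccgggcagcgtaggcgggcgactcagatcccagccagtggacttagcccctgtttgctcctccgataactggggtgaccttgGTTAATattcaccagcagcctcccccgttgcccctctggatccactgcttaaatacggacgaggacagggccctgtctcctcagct

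F7 and F10 are shown as a pair because they lie next to each other on chromosome 13, 2.1 kb apart on the same strand, and went opposite ways with JQ1. Capitals mark the HNF4 letters CAAAGTCC or their reverse complement GGACTTTG, present in the windows of F10, PLAU and PROZ and in 1.20% of all 35116 windows. The F7 window (chr13:113105541-113105800, plus strand) has no match, and the match at the start of F10 (chr13:113122549-113122808, plus strand) overlaps a GCGTG, another sequence searched. A match describes letters, not a bound factor, and a missing match says nothing about the factor.
F7: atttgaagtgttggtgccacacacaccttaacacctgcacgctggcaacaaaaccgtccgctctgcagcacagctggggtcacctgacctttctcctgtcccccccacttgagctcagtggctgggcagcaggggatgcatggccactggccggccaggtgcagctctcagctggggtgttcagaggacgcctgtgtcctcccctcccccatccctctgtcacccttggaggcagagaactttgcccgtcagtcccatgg
F10: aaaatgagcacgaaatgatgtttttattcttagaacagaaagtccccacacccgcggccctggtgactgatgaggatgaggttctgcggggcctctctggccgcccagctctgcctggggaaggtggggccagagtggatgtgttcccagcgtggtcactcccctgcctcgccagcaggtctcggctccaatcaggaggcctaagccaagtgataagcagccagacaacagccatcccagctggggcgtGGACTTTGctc

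Of the other sequences searched on both strands, GCGTG (the AHR core) was in windows of 14 of the 39 members and in 36.5% of all windows. The E-box CACGTG was in those of KNG1 and SERPINE2 (7.26% of all windows), and TGATGNAA, which ATF4 with C/EBP can bind, was in that of SERPINA6 (3.62%). For these and for HNF4 the shares are per window, whereas a member counted if any of its windows held the letters. The 39 members had 49 windows, so the member counts and the shares are not on the same footing.

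Values are TPM per gene as deposited, and differences are on the log2(TPM + 1) scale, which understates changes of genes at a few TPM. A gene was called, and is said to have risen or fallen, when its Benjamini-Hochberg adjusted p in limma's model over all tested genes was under 0.05. A signed value beside an adjusted p is a log2 fold change against vehicle or, between the compounds, JQ1 minus FIDAS-5. Nothing in the labels tells whether libraries of 1 group stem from independent cultures, and the p-values therefore measure a library-to-library spread that could be technical. TPM keep no read counts, so the depth behind each value is unknown. HEXIM1, which is known to rise under BET inhibitors, averaged 23.3 ± 4.40 TPM with JQ1, 6.69 ± 1.33 TPM with FIDAS-5 and 6.16 ± 0.153 TPM with vehicle (SD, n = 3 each). CYP1A1 averaged 4.23 ± 0.195 TPM with JQ1, 985 ± 54.1 TPM with FIDAS-5 and 5.07 ± 0.677 TPM with vehicle, and MAT2A was called in neither comparison with vehicle. Libraries also differed along transcript GC content: JQ1 replicate 3 and FIDAS-5 replicate 3 departed towards GC-rich genes (Spearman rho across genes 0.641 and 0.555), and JQ1 replicate 1 and FIDAS-5 replicate 1 towards GC-poor genes (-0.654 and -0.506). Vehicle replicate 1 also departed towards GC-rich genes (0.385) and vehicle replicate 2 towards GC-poor genes (-0.273). Log2 fold changes against vehicle themselves followed GC content over 12925 genes, with Spearman rho 0.216 with JQ1 and 0.372 with FIDAS-5. Between the compounds rho was -0.0447. GC-poor members such as PROS1, TFPI, F13B and CPB2 were lowest in replicate 3 of both treated groups.

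The cells carried hepatocyte markers at high levels: the 7 listed genes (ALB, AFP, APOA1, APOB, TTR, TF and HNF4A) summed to 5634 to 10104 TPM in JQ1 libraries, 2989 to 4936 TPM in FIDAS-5 libraries and 3667 to 4871 TPM in vehicle libraries. The 7 did not move together with JQ1: 5 rose (19.0% of all tested genes), AFP was not called, and TTR fell (log2 value -1.73, adjusted p = 1.64e-05). The endothelial gene CDH5, the platelet genes PF4, PPBP and GP9 and the cholangiocyte gene KRT7 were listed at 0 in every library. The 5 endothelial markers summed to 1.35 to 1.64 TPM in JQ1, 15.4 to 16.6 TPM in FIDAS-5 and 6.58 to 9.87 TPM in vehicle libraries, nearly all of it PECAM1. The 5 leukocyte markers summed to 19.2 to 28.0 TPM in JQ1, 253 to 312 TPM in FIDAS-5 and 114 to 141 TPM in vehicle libraries, mostly LYZ, while the defining gene PTPRC was at 0.191 to 0.661 TPM in JQ1 libraries, 0.339 to 0.526 TPM in FIDAS-5 libraries and 0.360 to 0.918 TPM in vehicle libraries. PECAM1 and LYZ were called lower with JQ1 and higher with FIDAS-5, and their part in the members' results was not tested. The 4 platelet markers reached at most 0.117 TPM in any library, the 4 fibroblast and stellate markers 1.08 to 1.99 TPM, and the 4 cholangiocyte markers 5.44 to 16.6 TPM.

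With JQ1, 28 of the 37 tested members were called, where 38.5% of all 13573 tested genes were: 12 members rose (19.0% of all tested genes) and 16 fell (19.4%). With FIDAS-5, 21 members were called (20.2% of all tested genes): 19 rose (12.6%) and 2 fell (7.60%). The median log2 fold change of the tested members was -0.30 with JQ1 and 0.59 with FIDAS-5, beside -0.01 and -0.02 for all tested genes. By at least 2-fold on the log2(TPM + 1) scale, 9 members rose and 10 fell with JQ1 (6.88% and 7.43% of all tested genes). With FIDAS-5, 8 rose and 1 fell by that much (3.97% and 2.62%). Members at a few TPM whose mean TPM differed by more than 2-fold can be left out, such as F13B and PROC with JQ1 and HRG with FIDAS-5. Between the compounds, 28 members were called (34.8% of all tested genes), 6 higher (16.4%) and 22 lower (18.5%) with JQ1 than with FIDAS-5, and the members' median difference was -0.55, beside 0.05. Every JQ1 library lay above every vehicle library in 12 members and below in 19, as in 24.5% and 26.2% of all tested genes. Every FIDAS-5 library lay above in 24 members and below in 2 (20.9% and 18.4%), and every JQ1 library lay above every FIDAS-5 library in 8 members and below in 22 (22.7% and 25.0%). Both comparisons with vehicle use the same 3 vehicle libraries, so their values are given side by side and the compounds are compared directly. These counts include PLG, which passed the filter through its FIDAS-5 libraries alone. Over the other 36 members, 18 rose and 2 fell with FIDAS-5, all FIDAS-5 libraries lay above vehicle in 23, and 21 were lower with JQ1 than with FIDAS-5. In bulk RNA, fewer cells expressing a gene and less RNA per cell cannot be told apart.

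**Figure D1:**
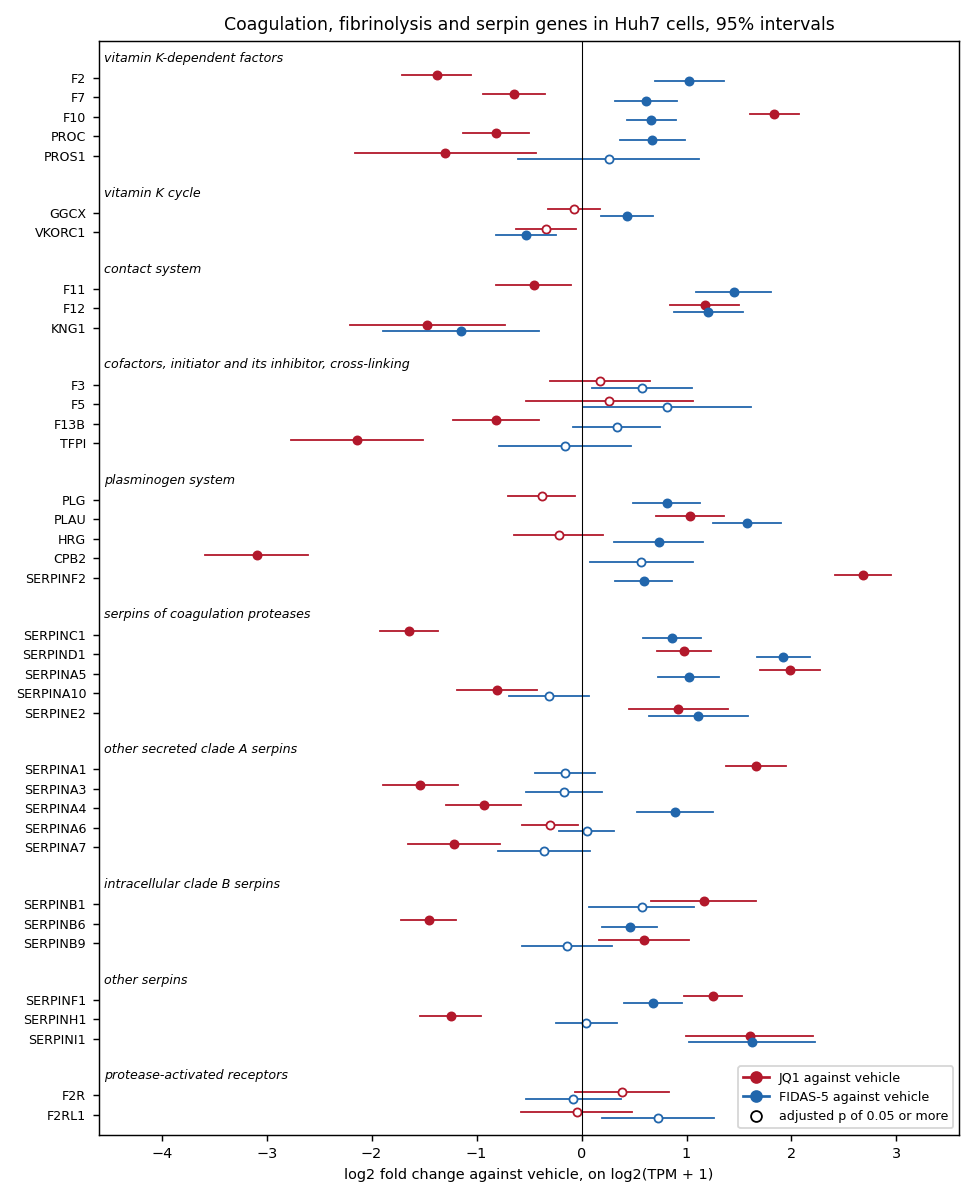
Log2 fold change of each tested member with JQ1 and with FIDAS-5 against vehicle on the log2(TPM + 1) scale, with 95% intervals as lines, filled points for members called at an adjusted p under 0.05 and open points for the others. CPB2 lies lowest with JQ1 at -3.10 and SERPINF2 highest at 2.68, while with FIDAS-5 the values run from -1.15 for KNG1 to 1.92 for SERPIND1.

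Among the vitamin K-dependent factors, F10 rose and F2, F7, PROC and PROS1 fell with JQ1, and F2, F7, F10 and PROC rose with FIDAS-5. F2, which encodes prothrombin, had 6.58, 8.61 and 8.13 TPM in JQ1 libraries, 44.7, 44.4 and 46.8 TPM in FIDAS-5 libraries and 25.3, 20.9 and 19.3 TPM in vehicle libraries. The 3 groups did not overlap, with FIDAS-5 highest and JQ1 lowest. F2 changed by -1.38 (SE 0.14, adjusted p = 0.00016) with JQ1 and 1.03 (SE 0.14, adjusted p = 0.00154) with FIDAS-5, and the compounds differed by -2.41 (SE 0.14, adjusted p = 5.97e-06). F2 is one of the members with the letters GTTAAT in its window, as is PROC. PROC, the precursor of activated protein C, had 1.81, 2.33 and 2.18 TPM in JQ1 libraries, 7.90, 6.58 and 8.76 TPM in FIDAS-5 libraries and 4.18, 4.85 and 4.36 TPM in vehicle libraries. Again every FIDAS-5 library lay above and every JQ1 library below the vehicle libraries: the log2 fold changes were -0.82 (SE 0.14, adjusted p = 0.00184) with JQ1 and 0.67 (SE 0.14, adjusted p = 0.00904) with FIDAS-5, and -1.49 (SE 0.14, adjusted p = 6.21e-05) between the compounds. The FIDAS-5 call of PROC was lost when the GC trend was removed (log2 fold change 0.38, adjusted p = 0.0848).

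F7, the protease that pairs with tissue factor, had 2.14, 1.93 and 1.63 TPM in JQ1 libraries, 6.25, 5.62 and 5.86 TPM in FIDAS-5 libraries and 4.11, 3.33 and 3.15 TPM in vehicle libraries, so the groups did not overlap. Its log2 fold change was -0.64 (SE 0.13, adjusted p = 0.00468) with JQ1 and 0.61 (SE 0.13, adjusted p = 0.0109) with FIDAS-5, and -1.25 (SE 0.13, adjusted p = 0.000124) between the compounds. Without vehicle replicate 3 the FIDAS-5 call of F7 was lost (adjusted p = 0.0532). Its neighbour F10, the protease of the prothrombinase complex, had 27.7, 28.0 and 27.0 TPM in JQ1 libraries, 11.5, 12.2 and 11.3 TPM in FIDAS-5 libraries and 6.99, 7.10 and 6.89 TPM in vehicle libraries. Here JQ1 libraries were highest and vehicle libraries lowest, without overlap: F10 rose by 1.84 (SE 0.10, adjusted p = 1.16e-05) with JQ1 and by 0.66 (SE 0.10, adjusted p = 0.00254) with FIDAS-5 on the log2 scale, and was 1.17 (SE 0.10, adjusted p = 4.8e-05) higher with JQ1 than with FIDAS-5. PROS1, the cofactor of activated protein C, had 13.5, 12.3 and 4.95 TPM in JQ1 libraries, 42.4, 34.4 and 18.0 TPM in FIDAS-5 libraries and 24.7, 24.5 and 25.1 TPM in vehicle libraries. All JQ1 values lay below all vehicle values, but JQ1 replicate 3 lay far below the other JQ1 libraries and FIDAS-5 replicate 3 below vehicle. PROS1 fell by 1.30 on the log2 scale with JQ1 (SE 0.38, adjusted p = 0.0247), which missed the threshold with any 1 vehicle library left out (adjusted p = 0.0575 to 0.0677), and its FIDAS-5 value was 0.26 (adjusted p = 0.68). PROS1 has a GC content of 40.3%. With the GC trend removed its log2 fold change with JQ1 was -1.14 (adjusted p = 0.00108). With FIDAS-5, leaving out replicate 3 of both treated groups gave 0.61 (adjusted p = 0.0275), and leaving out FIDAS-5 replicate 1 gave 0.0089. Between the compounds PROS1 differed by -1.55 (SE 0.38, adjusted p = 0.0124).

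F9 was listed at 0 in every library, and PROZ, which encodes a cofactor of the SERPINA10 protein, was at 0.310 to 0.594 TPM in JQ1 libraries, 0.368 to 1.0 TPM in FIDAS-5 libraries and 0.575 to 1.05 TPM in vehicle libraries, so neither was tested. The enzymes of the vitamin K cycle were abundant. GGCX, the gamma-carboxylase, had 41.1, 40.9 and 36.5 TPM in JQ1 libraries, 58.1, 55.5 and 55 TPM in FIDAS-5 libraries and 42.8, 40.9 and 40.6 TPM in vehicle libraries. The FIDAS-5 libraries lay above all others, and JQ1 and vehicle libraries overlapped. GGCX rose with FIDAS-5 by 0.43 (SE 0.11, adjusted p = 0.0234), but not with vehicle replicate 3 or any 1 FIDAS-5 library left out (adjusted p = 0.0519 to 0.0882), its JQ1 value was -0.07 (adjusted p = 0.651), and the compounds differed by -0.50 (SE 0.11, adjusted p = 0.00728). VKORC1, the epoxide reductase that warfarin inhibits, ranged over 67.6 to 74.8 TPM in JQ1 libraries, 58.0 to 64.7 TPM in FIDAS-5 libraries and 78.5 to 99.1 TPM in vehicle libraries. It fell with FIDAS-5 (log2 value -0.53, adjusted p = 0.0186), though not without FIDAS-5 replicate 3 (adjusted p = 0.0801), and its JQ1 value of -0.34 (adjusted p = 0.0628) missed the threshold but passed with the GC trend removed (-0.51, adjusted p = 0.00241). Exons of GGCX overlap those of MAT2A on the opposite strand over 558 of 9098 bases, and most of the VKORC1 exon bases (1272 of 2191) overlap an antisense transcript. A further transcript on the same strand shares 761 of the VKORC1 exon bases. Whether the counting used strand is not stated, and a same-strand overlap would not be resolved by strand, so these values are uncertain to that extent.

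**Figure D2:**
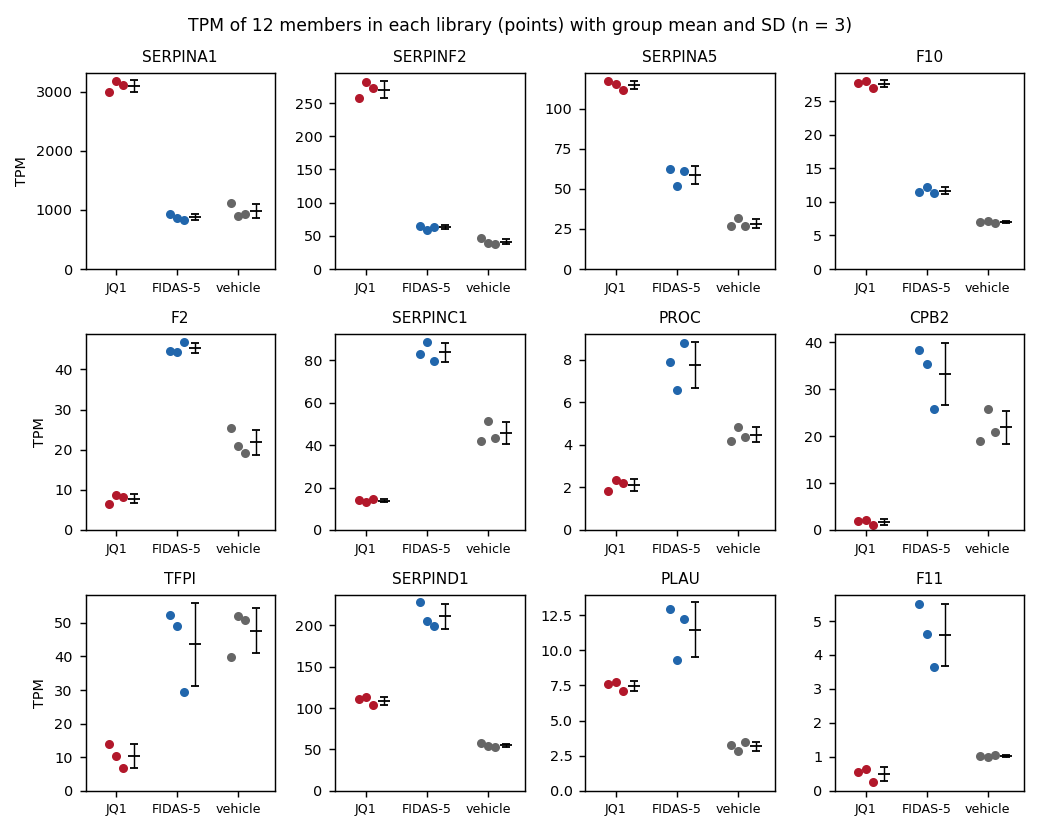
TPM of 12 members in each library (points) with the group mean and SD beside them, for JQ1, FIDAS-5 and vehicle from left to right, each panel on its own axis from 0. F2, PROC and SERPINC1 are highest with FIDAS-5 and lowest with JQ1, and in CPB2 the 3 JQ1 libraries lie at 1.06 to 2.20 TPM, below all others.

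In the contact system, F12 rose while F11 and KNG1 fell with JQ1, and F11 and F12 rose while KNG1 fell with FIDAS-5. F11, the gene of the zymogen that activates factor IX (chr4:186265945-186288806, plus strand), had 0.567, 0.637 and 0.266 TPM in JQ1 libraries, 5.49, 4.61 and 3.65 TPM in FIDAS-5 libraries and 1.03, 0.997 and 1.06 TPM in vehicle libraries. The FIDAS-5 libraries stood above all others, and the JQ1 libraries were all below vehicle. F11 rose by 1.45 (SE 0.16, adjusted p = 0.00042) with FIDAS-5, and the compounds differed by -1.90 (SE 0.16, adjusted p = 3.51e-05). Its fall with JQ1, -0.45 (SE 0.16, adjusted p = 0.0478), was near the threshold: it was lost without any 1 vehicle library, any 1 JQ1 library or FIDAS-5 replicate 2 (adjusted p = 0.0641 to 0.122). F12, the initiator of the contact pathway, had 3.46, 3.51 and 3.20 TPM in JQ1 libraries, 4.31, 3.21 and 3.07 TPM in FIDAS-5 libraries and 1.13, 0.719 and 1.02 TPM in vehicle libraries. Treated libraries lay above vehicle in both groups and overlapped each other, with log2 fold changes of 1.17 (SE 0.14, adjusted p = 0.000377) with JQ1 and 1.21 (SE 0.14, adjusted p = 0.000697) with FIDAS-5. The compounds differed by -0.04 (95% interval -0.36 to 0.29, adjusted p = 0.876). F12 shares 399 of 2769 exon bases with the antisense gene GRK6, which rose with JQ1 by 0.38 (adjusted p = 0.0312).

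KNG1, which encodes the kininogens, fell with both compounds. It had 16.7, 14.6 and 8.17 TPM in JQ1 libraries, 19.9, 18.7 and 11 TPM in FIDAS-5 libraries and 25.9, 47.9 and 39.9 TPM in vehicle libraries. All treated libraries lay below all vehicle libraries, which themselves spread widely, and the log2 fold changes were -1.47 (SE 0.33, adjusted p = 0.00722) with JQ1 and -1.15 (SE 0.33, adjusted p = 0.0373) with FIDAS-5. The FIDAS-5 call was lost without vehicle replicate 2 or 3, any 1 FIDAS-5 library or JQ1 replicate 2 (adjusted p = 0.0517 to 0.127). KLKB1, the gene of prekallikrein next to F11, was at 0.124 to 0.290 TPM in JQ1 libraries, 0.729 to 1.34 TPM in FIDAS-5 libraries and 0.0529 to 0.0818 TPM in vehicle libraries and was too low for the tests. With no filter on low values, its log2 fold change with FIDAS-5 was 0.91 (adjusted p = 0.00486). It shares 201 of 2953 exon bases with CYP4V2 on the same strand, and F11 shares 354 of 3364 with the antisense F11-AS1. Antisense transcripts also overlap 722 of 4675 exon bases of KNG1 and 447 of 5061 of HRG.

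Of the initiator, its inhibitor, the cofactors and the cross-linking factor, TFPI and F13B fell with JQ1 and none was called with FIDAS-5 by limma, where 2 had an unadjusted p under 0.05. TFPI, the inhibitor of the tissue factor pathway (chr2:187464230-187565760, minus strand), had 13.8, 10.4 and 6.88 TPM in JQ1 libraries, 52.2, 49.0 and 29.5 TPM in FIDAS-5 libraries and 39.9, 52.1 and 50.9 TPM in vehicle libraries. Every JQ1 library lay below every other library, while the FIDAS-5 and vehicle libraries overlapped. TFPI fell by 2.14 on the log2 scale (SE 0.28, adjusted p = 0.000493) with JQ1 and was -1.98 (SE 0.28, adjusted p = 0.000723) between JQ1 and FIDAS-5, whereas its FIDAS-5 value was -0.16 (adjusted p = 0.734). With the GC trend removed the JQ1 value was -1.98 (adjusted p = 7.98e-06). F13B, the carrier subunit of factor XIII, had 0.225, 0.211 and 0.0366 TPM in JQ1 libraries, 1.82, 2.07 and 0.952 TPM in FIDAS-5 libraries and 0.851, 1.16 and 1.10 TPM in vehicle libraries. JQ1 libraries were lowest, and FIDAS-5 and vehicle libraries overlapped. F13B fell by 0.82 on the log2 scale (SE 0.18, adjusted p = 0.00731) with JQ1, had 0.33 (adjusted p = 0.236) with FIDAS-5, and differed by -1.15 (SE 0.18, adjusted p = 0.00137) between the compounds. F3, which encodes tissue factor, ranged over 2.18 to 3.96 TPM in JQ1 libraries, 3.56 to 5.90 TPM in FIDAS-5 libraries and 2.45 to 3.05 TPM in vehicle libraries, and had log2 fold changes of 0.18 (adjusted p = 0.537) with JQ1 and 0.58 (adjusted p = 0.0886) with FIDAS-5. With the GC trend removed, F3 (0.78, adjusted p = 0.00233), F5 (0.96, adjusted p = 0.0157) and F13B (0.60, adjusted p = 0.0198) were all called higher with FIDAS-5. The FIDAS-5 value of F3 also passed the threshold without JQ1 replicate 3 (adjusted p = 0.0379). F5, the cofactor of factor X, ranged over 3.38 to 8.47 TPM in JQ1 libraries, 6.95 to 14.6 TPM in FIDAS-5 libraries and 3.46 to 6.13 TPM in vehicle libraries, and had 0.27 (adjusted p = 0.584) with JQ1 and 0.82 (adjusted p = 0.143) with FIDAS-5. Leaving out 1 library moved the F5 value between 0.0552 (without JQ1 replicate 1) and 0.61 (without JQ1 replicate 3) with JQ1, and between 0.52 (without FIDAS-5 replicate 1) and 1.01 (without FIDAS-5 replicate 2) with FIDAS-5. THBD, thrombomodulin, was listed at 0 in every library.

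In the plasminogen system CPB2 fell and SERPINF2 rose with JQ1. CPB2, which encodes the carboxypeptidase TAFI that slows fibrinolysis (chr13:46053195-46105033, minus strand), had 1.86, 2.20 and 1.06 TPM in JQ1 libraries, 38.5, 35.4 and 25.9 TPM in FIDAS-5 libraries and 19.0, 25.8 and 20.9 TPM in vehicle libraries. The JQ1 libraries lay far below all others. CPB2 fell by 3.10 on the log2 scale (SE 0.22, adjusted p = 2.32e-05) with JQ1, differed by -3.67 (SE 0.22, adjusted p = 5.42e-06) between the compounds, and had 0.57 (adjusted p = 0.0985) with FIDAS-5, which passed with the GC trend removed (0.81, adjusted p = 0.00212). SERPINF2, alpha-2-antiplasmin, the main inhibitor of plasmin (chr17:1742836-1755268, plus strand), had 257, 282 and 272 TPM in JQ1 libraries, 65.0, 59.1 and 64.0 TPM in FIDAS-5 libraries and 46.1, 39.7 and 38.4 TPM in vehicle libraries. JQ1 libraries were highest and vehicle libraries lowest, without overlap. SERPINF2 rose by 2.68 (SE 0.12, adjusted p = 4.89e-06) with JQ1 and by 0.59 (SE 0.12, adjusted p = 0.00871) with FIDAS-5, and the compounds differed by 2.09 (SE 0.12, adjusted p = 4.61e-06).

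PLAU, the urokinase-type activator of plasminogen, rose with both compounds. It had 7.60, 7.76 and 7.08 TPM in JQ1 libraries, 12.9, 9.29 and 12.2 TPM in FIDAS-5 libraries and 3.23, 2.80 and 3.44 TPM in vehicle libraries, so that all treated libraries lay above vehicle and FIDAS-5 above JQ1. Its log2 fold change was 1.03 (SE 0.14, adjusted p = 0.000727) with JQ1 and 1.58 (SE 0.14, adjusted p = 0.00017) with FIDAS-5. The difference between the compounds, -0.55 (adjusted p = 0.0176), was lost without FIDAS-5 replicate 1 or 3 (adjusted p = 0.0582 to 0.0668). PLAU shares 916 of 2950 exon bases with the antisense gene C10orf55, itself under 1 TPM on average in every group. PLG, plasminogen itself, had 0.194, 0.17 and 0.158 TPM in JQ1 libraries, 1.73, 1.92 and 1.42 TPM in FIDAS-5 libraries and 0.324, 0.785 and 0.506 TPM in vehicle libraries. Only FIDAS-5 libraries reached 1 TPM, and JQ1 libraries lay lowest. PLG passed the filter through the FIDAS-5 libraries alone, so its FIDAS-5 value of 0.81 (SE 0.14, adjusted p = 0.00423) and the difference between the compounds of -1.19 (SE 0.14, adjusted p = 0.000265) could not be small and are given as a description. Its JQ1 value was -0.38 (adjusted p = 0.0613), which passed without vehicle replicate 1 (adjusted p = 0.0297). HRG, the histidine-rich glycoprotein that binds plasminogen, had 0.944, 0.535 and 0.588 TPM in JQ1 libraries, 2.61, 2.03 and 2.11 TPM in FIDAS-5 libraries and 1.27, 0.488 and 1.20 TPM in vehicle libraries. FIDAS-5 libraries lay above all others, and JQ1 and vehicle libraries overlapped. HRG rose with FIDAS-5 by 0.73 (SE 0.19, adjusted p = 0.0247), a call lost without any 1 FIDAS-5 library (adjusted p = 0.0514 to 0.08), and had -0.22 (adjusted p = 0.397) with JQ1 and -0.95 (SE 0.19, adjusted p = 0.0045) between the compounds. PLAT, the tissue-type activator, and PLAUR, the urokinase receptor, were too low for the tests, at 0.256 to 0.340 TPM in JQ1 libraries, 0.166 to 0.256 TPM in FIDAS-5 libraries and 0.299 to 0.375 TPM in vehicle libraries for PLAT and 0.672 to 0.829 TPM in JQ1 libraries, 0.517 to 0.750 TPM in FIDAS-5 libraries and 1.0 to 1.18 TPM in vehicle libraries for PLAUR. With no filter on low values PLAUR had -0.24 with JQ1 (adjusted p = 0.04825) and -0.34 with FIDAS-5 (adjusted p = 0.0248).

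The serpins that act on coagulation proteases were divided with JQ1: SERPINA5, SERPIND1 and SERPINE2 rose, and SERPINC1 and SERPINA10 fell. With FIDAS-5, 4 of the 5 rose (12.6% of all tested genes), SERPINA10 being the exception. SERPINC1, antithrombin, the main inhibitor of thrombin and factor X (chr1:173903804-173917378, minus strand), had 14.1, 13.2 and 14.4 TPM in JQ1 libraries, 83.1, 88.6 and 79.6 TPM in FIDAS-5 libraries and 42.1, 51.5 and 43.4 TPM in vehicle libraries. The 3 groups were far apart, FIDAS-5 highest and JQ1 lowest. SERPINC1 changed by -1.65 (SE 0.12, adjusted p = 3.12e-05) with JQ1 and 0.87 (SE 0.12, adjusted p = 0.0016) with FIDAS-5, and the compounds differed by -2.51 (SE 0.12, adjusted p = 1.94e-06). SERPIND1, heparin cofactor II, had 111, 113 and 104 TPM in JQ1 libraries, 228, 205 and 199.8 TPM in FIDAS-5 libraries and 57.4, 53.9 and 53.4 TPM in vehicle libraries. It rose by 0.98 (SE 0.11, adjusted p = 0.000258) with JQ1 and by 1.92 (SE 0.11, adjusted p = 1.99e-05) with FIDAS-5, and was lower with JQ1 than with FIDAS-5 (log2 value -0.94, SE 0.11, adjusted p = 0.000275).

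SERPINA5, the protein C inhibitor, had 117, 116 and 112 TPM in JQ1 libraries, 62.4, 52.0 and 60.9 TPM in FIDAS-5 libraries and 26.7, 31.8 and 26.6 TPM in vehicle libraries. The order was JQ1, then FIDAS-5, then vehicle, without overlap. It rose by 1.98 (SE 0.13, adjusted p = 1.65e-05) with JQ1 and 1.02 (SE 0.13, adjusted p = 0.000869) with FIDAS-5, and the compounds differed by 0.97 (adjusted p = 0.000502). SERPINE2, a cell-bound thrombin inhibitor known as protease nexin-1, had 9.38, 8.45 and 5.55 TPM in JQ1 libraries, 11.3, 7.31 and 8.35 TPM in FIDAS-5 libraries and 3.81, 3.18 and 3.71 TPM in vehicle libraries. Treated libraries lay above vehicle, and those of the compounds overlapped. It rose by 1.11 (SE 0.21, adjusted p = 0.0061) with FIDAS-5 and by 0.92 (adjusted p = 0.0078) with JQ1. SERPINA10, the protein Z-dependent inhibitor, fell with JQ1 (log2 value -0.81, adjusted p = 0.00517), ranging over 2.35 to 3.64 TPM in JQ1 libraries, 3.89 to 5.16 TPM in FIDAS-5 libraries and 5.03 to 6.26 TPM in vehicle libraries. Its FIDAS-5 value was -0.31 (adjusted p = 0.231). Between the compounds it was called (log2 value -0.50, adjusted p = 0.0464), but not with the replicate number as a block (adjusted p = 0.0502) or without vehicle replicate 1 or 3, any 1 FIDAS-5 library or JQ1 replicate 2 or 3 (adjusted p = 0.0531 to 0.147).

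Other clade A serpins are secreted inhibitors and hormone carriers. SERPINA1, alpha-1-antitrypsin, the inhibitor of neutrophil elastase, was the most abundant member in every library. It had 2996, 3185 and 3120.2 TPM in JQ1 libraries, 939, 863 and 831 TPM in FIDAS-5 libraries and 1123, 899.7 and 928 TPM in vehicle libraries. JQ1 libraries stood above all others, while FIDAS-5 and vehicle libraries overlapped. SERPINA1 rose by 1.66 (SE 0.13, adjusted p = 3.47e-05) with JQ1, was 1.82 (SE 0.13, adjusted p = 1.31e-05) higher with JQ1 than with FIDAS-5, and had -0.16 (adjusted p = 0.421) with FIDAS-5. All members together summed to 4197 ± 116 TPM with JQ1, 1993 ± 144 TPM with FIDAS-5 and 1724 ± 121 TPM with vehicle (SD, n = 3 each). SERPINA1 alone was 73.9% of that sum with JQ1, 44.1% with FIDAS-5 and 56.9% with vehicle. Without SERPINA1 the sums were 1097 ± 65.1 TPM with JQ1, 1115 ± 88.8 TPM with FIDAS-5 and 741 ± 31.0 TPM with vehicle, so that both treated groups lay above vehicle and overlapped each other.

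**Figure D3:**
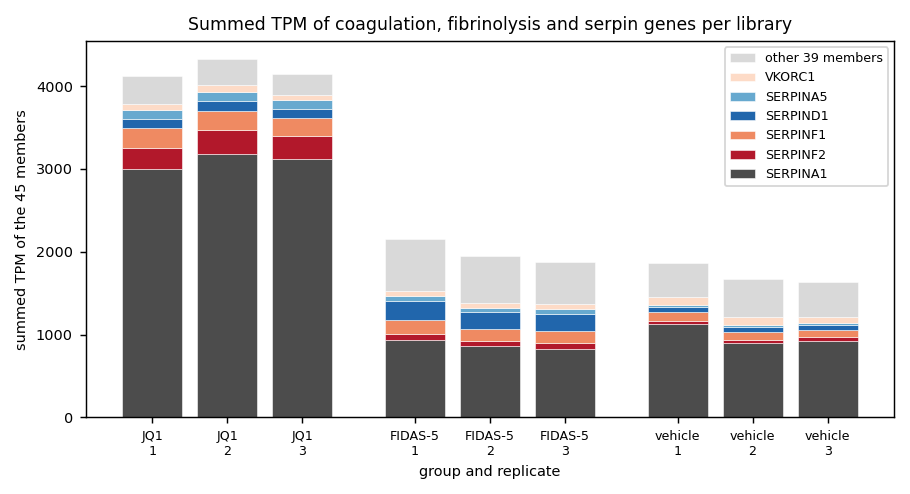
Summed TPM of the 45 members in each of the 9 libraries, JQ1, FIDAS-5 and vehicle from left to right, stacked as SERPINA1, 5 other abundant members and the other 39. The JQ1 bars reach 4118 to 4331 TPM, 72.8% to 75.3% of it SERPINA1.

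SERPINA3, antichymotrypsin, had 1.94, 2.30 and 1.74 TPM in JQ1 libraries, 6.85, 5.91 and 7.42 TPM in FIDAS-5 libraries and 9.55, 6.79 and 6.89 TPM in vehicle libraries. It fell by 1.54 on the log2 scale (SE 0.16, adjusted p = 0.000148) with JQ1, where no library overlapped with vehicle, and had -0.17 (adjusted p = 0.496) with FIDAS-5, where they overlapped. Between the compounds SERPINA3 differed by -1.37 (adjusted p = 0.000237). Of its 5007 exon bases, 1592 overlap another transcript on the same strand, so its level is uncertain to that extent. SERPINA4, kallistatin, had 1.58, 1.49 and 1.10 TPM in JQ1 libraries, 7.97, 8.65 and 5.91 TPM in FIDAS-5 libraries and 3.29, 3.94 and 3.43 TPM in vehicle libraries. The groups did not overlap, FIDAS-5 being highest and JQ1 lowest. SERPINA4 changed by -0.93 (SE 0.16, adjusted p = 0.00196) with JQ1 and 0.89 (SE 0.16, adjusted p = 0.00481) with FIDAS-5, and by -1.82 (SE 0.16, adjusted p = 4.58e-05) between the compounds. SERPINA7, the thyroxine-binding globulin, had 0.752, 0.129 and 0.262 TPM in JQ1 libraries, 1.38, 1.80 and 1.23 TPM in FIDAS-5 libraries and 1.67, 2.39 and 2.46 TPM in vehicle libraries. It fell by 1.22 on the log2 scale (SE 0.19, adjusted p = 0.00136) with JQ1, without overlap with vehicle, and had -0.36 (adjusted p = 0.232) with FIDAS-5. SERPINA6, the corticosteroid-binding globulin, had 21.0, 23.5 and 22.3 TPM in JQ1 libraries, 28.7, 27.5 and 29.8 TPM in FIDAS-5 libraries and 25.3, 30.1 and 27.7 TPM in vehicle libraries. JQ1 libraries were below all others, and FIDAS-5 and vehicle libraries overlapped. SERPINA6 had -0.30 (adjusted p = 0.0704) with JQ1, a value that passed without vehicle replicate 1 (adjusted p = 0.04997) or with the GC trend removed (adjusted p = 0.0232), and 0.05 (adjusted p = 0.806) with FIDAS-5. Between the compounds SERPINA6 was called (-0.35, SE 0.12, adjusted p = 0.0447), but not with the replicate block (adjusted p = 0.0618) or without vehicle replicate 3 or any 1 library of either compound (adjusted p = 0.0696 to 0.142). That call was also lost with a pseudocount of 0.1 (adjusted p = 0.0626), median-of-ratios scaling (adjusted p = 0.0797) and quantile normalization (adjusted p = 0.158).

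Of the 10 tested members with the letters GTTAAT in a window, 6 fell with JQ1 (F2, PROC, F13B, SERPINA4, SERPINA10 and SERPINA7), SERPINA1 rose, and PLG, SERPINA6 and F2RL1 were not called. Of all 566 tested genes with these letters in a window 16.4% rose and 23.5% fell with JQ1, beside 19.0% and 19.4% of all tested genes. Of the 23 tested members with a window but without the letters, 9 rose and 9 fell. Among all 9065 such genes 20% rose and 19.3% fell. With FIDAS-5, 4 of the 10 rose and 0 fell by limma (16.3% and 6.54% of all tested genes with the letters). The 4 were F2, PROC, SERPINA4 and PLG. PLG passed the filter through its FIDAS-5 libraries alone, so its rise could not have been small. Of the 23, 12 rose and 2 fell with FIDAS-5 (13.2% and 7.37% of all tested genes with a window but without the letters). The members and the letters were chosen with earlier results of these data known, so these counts are a description.

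**Figure D4:**
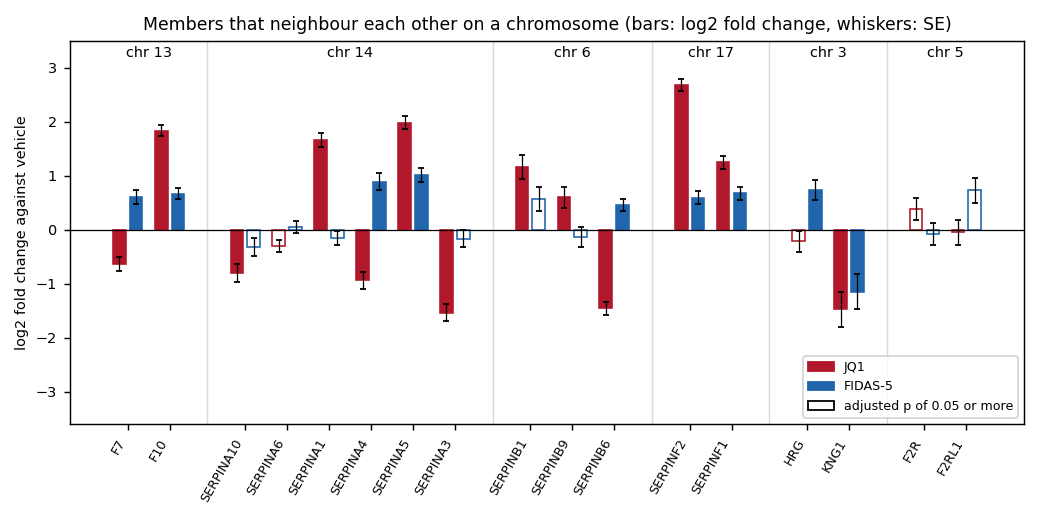
Log2 fold change with JQ1 (red) and FIDAS-5 (blue) against vehicle for tested members that neighbour another tested member on a chromosome, in chromosomal order, with the standard error as whiskers and open bars for values not called. In the chromosome 14 cluster SERPINA1 and SERPINA5 rose with JQ1 and SERPINA10, SERPINA4 and SERPINA3 fell.

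The members form 13 neighbouring pairs. Those of F10 with PROZ and of KLKB1 with F11 hold an untested member, so their members could not both be called. Pairs were not counted over all neighbouring genes. Neighbouring pairs can share a gene, so they are not separate observations. SERPINA4 and SERPINA5 are such shared genes in the chain from SERPINA1 to SERPINA3, and SERPINB9 pairs with both SERPINB1 and SERPINB6. Of all tested genes, 19.0% rose and 19.4% fell with JQ1, and 12.6% rose and 7.60% fell with FIDAS-5. With JQ1 both members of 7 pairs were called, 5 in opposite directions and 2 in the same direction, whereas with FIDAS-5 both were called in 4 pairs, 1 in opposite directions and 3 in the same, as the plot of neighbouring members shows. The JQ1 call of SERPINB9 and the FIDAS-5 calls of F7, HRG and KNG1 entered these counts and were lost with 1 library left out, as given beside each gene. On chromosome 14 the clade A genes lie in the order SERPINA10, SERPINA6, SERPINA1, SERPINA4, SERPINA5 and SERPINA3 in GENCODE v29 on GRCh38, with 3 other protein-coding starts between SERPINA1 and SERPINA4 and 1 between SERPINA5 and SERPINA3. Within that order with JQ1, SERPINA1 and SERPINA5 rose and SERPINA10, SERPINA4 and SERPINA3 fell. SERPINA4 and SERPINA5, annotated with 53 shared exon bases, went opposite ways with JQ1 and both rose with FIDAS-5. On chromosome 17, SERPINF2 and SERPINF1 lie 6.7 kb apart, and both rose with both compounds. HRG and KNG1, 39.0 kb apart on chromosome 3, had FIDAS-5 values of 0.73 and -1.15.

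The intracellular clade B serpins protect cells from their own and from lymphocyte proteases, and SERPINB1, SERPINB9 and SERPINB6 lie side by side on chromosome 6. SERPINB1, an inhibitor of neutrophil proteases, had 55.9, 51.7 and 30.5 TPM in JQ1 libraries, 30.4, 29.9 and 27.4 TPM in FIDAS-5 libraries and 16.3, 21.7 and 20.4 TPM in vehicle libraries. It rose by 1.16 (SE 0.22, adjusted p = 0.00354) with JQ1, all JQ1 libraries being above vehicle, and had 0.57 (adjusted p = 0.108) with FIDAS-5. Without JQ1 replicate 3 the FIDAS-5 value passed (adjusted p = 0.0189), as did the difference between the compounds (adjusted p = 0.00334, against 0.0686 with all libraries). SERPINB6 had 6.19, 5.99 and 5.64 TPM in JQ1 libraries, 27.1, 23.8 and 24.7 TPM in FIDAS-5 libraries and 18.0, 19.4 and 16.8 TPM in vehicle libraries. FIDAS-5 libraries were highest and JQ1 libraries lowest, without overlap: SERPINB6 changed by -1.46 (SE 0.12, adjusted p = 4.31e-05) with JQ1 and 0.46 (SE 0.12, adjusted p = 0.0228) with FIDAS-5, and by -1.92 (SE 0.12, adjusted p = 6.15e-06) between the compounds. The FIDAS-5 call of SERPINB6 did not hold with vehicle replicate 3, FIDAS-5 replicate 1 or FIDAS-5 replicate 3 left out (adjusted p = 0.0736 to 0.0972).

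SERPINB9, the inhibitor of granzyme B, had 29.3, 25.3 and 18.1 TPM in JQ1 libraries, 16.4, 13.5 and 12.1 TPM in FIDAS-5 libraries and 14.8, 16.9 and 14.6 TPM in vehicle libraries. JQ1 libraries lay above all others, and FIDAS-5 and vehicle libraries overlapped. SERPINB9 rose with JQ1 by 0.60 (SE 0.19, adjusted p = 0.0345) and had -0.14 (adjusted p = 0.657) with FIDAS-5. The JQ1 call was lost without any 1 vehicle library, FIDAS-5 replicate 2 or JQ1 replicate 1 or 2 (adjusted p = 0.0513 to 0.111). Its difference between the compounds, 0.73 (SE 0.19, adjusted p = 0.016), was lost with FIDAS-5 replicate 2, FIDAS-5 replicate 3, JQ1 replicate 1 or JQ1 replicate 2 left out (adjusted p = 0.0522 to 0.0608). SERPINB8 was too low for the tests, at 0.0130 to 0.0874 TPM in JQ1 libraries, 0.304 to 0.441 TPM in FIDAS-5 libraries and 0.0189 to 0.0755 TPM in vehicle libraries. With no filter its log2 fold change with FIDAS-5 was 0.41 (adjusted p = 0.00466).

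Of the remaining serpins, SERPINF1, which encodes the anti-angiogenic factor PEDF, had 236, 238 and 221 TPM in JQ1 libraries, 172, 145 and 150.5 TPM in FIDAS-5 libraries and 105, 95.1 and 90.6 TPM in vehicle libraries. The order was JQ1, FIDAS-5, vehicle, without overlap. SERPINF1 rose by 1.25 (SE 0.12, adjusted p = 0.000108) with JQ1 and 0.68 (SE 0.12, adjusted p = 0.00484) with FIDAS-5, and the compounds differed by 0.57 (adjusted p = 0.00632). SERPINH1, the collagen chaperone HSP47 of the endoplasmic reticulum, had 16.4, 18.3 and 16.9 TPM in JQ1 libraries, 47.9, 40.5 and 42.2 TPM in FIDAS-5 libraries and 44.6, 44.6 and 37.4 TPM in vehicle libraries. It fell by 1.24 on the log2 scale (SE 0.13, adjusted p = 0.000148) with JQ1, below every other library, and had 0.04 (adjusted p = 0.841) with FIDAS-5. Between the compounds SERPINH1 differed by -1.29 (adjusted p = 9.87e-05). SERPINI1, neuroserpin, an inhibitor of tissue-type plasminogen activator, had 8.36, 8.33 and 3.95 TPM in JQ1 libraries, 8.99, 6.15 and 5.35 TPM in FIDAS-5 libraries and 1.51, 1.33 and 1.64 TPM in vehicle libraries. It rose by 1.60 (SE 0.27, adjusted p = 0.00174) with JQ1 and 1.62 (SE 0.27, adjusted p = 0.00327) with FIDAS-5, all treated libraries being above vehicle. The compounds overlapped and differed by -0.02 (95% interval -0.63 to 0.58, adjusted p = 0.958). JQ1 replicate 3 lay well below the other JQ1 libraries, in a gene with a GC content of 40.3%.

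The protease-activated receptors, cleaved by thrombin and related proteases, were not called against vehicle by limma, and F2RL1 with FIDAS-5 was the 1 value with an unadjusted p under 0.05. F2R, which encodes PAR1, ranged over 6.51 to 10.9 TPM in JQ1 libraries, 5.62 to 7.64 TPM in FIDAS-5 libraries and 6.18 to 7.34 TPM in vehicle libraries, and had 0.38 (adjusted p = 0.158) with JQ1 and -0.08 (adjusted p = 0.823) with FIDAS-5. Without JQ1 replicate 3 its JQ1 value passed (adjusted p = 0.0163), as did its difference between the compounds (adjusted p = 0.0099, against 0.104 with all libraries). F2RL1, PAR2, had 2.32, 3.18 and 1.83 TPM in JQ1 libraries, 4.98, 4.80 and 4.65 TPM in FIDAS-5 libraries and 1.49, 3.70 and 2.67 TPM in vehicle libraries. FIDAS-5 libraries were highest, and JQ1 and vehicle libraries overlapped. F2RL1 had -0.04 (adjusted p = 0.901) with JQ1 and 0.73 (adjusted p = 0.0582) with FIDAS-5. The FIDAS-5 value passed without vehicle replicate 2 or JQ1 replicate 3 (adjusted p = 0.025 to 0.0454). F2RL1 was called between the compounds, at -0.77 (SE 0.23, adjusted p = 0.0308), though not without any 1 FIDAS-5 library or JQ1 replicate 1 or 3 (adjusted p = 0.0692 to 0.0808). HGFAC, the activator of hepatocyte growth factor, reached at most 0.0447 TPM in any library and was not tested.

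F2, F7, PROC, F11, SERPINC1, SERPINA4 and SERPINB6 were called lower with JQ1 and higher with FIDAS-5 against the shared vehicle libraries. Among these calls, that of F11 with JQ1 and those of F7, PROC and SERPINB6 with FIDAS-5 did not hold under every alternative, as given above. Of all tested genes, 19.4% fell with JQ1 and 12.6% rose with FIDAS-5, and the share with both calls was not counted. In the same fit the direct comparison is the difference of the values against vehicle. Each of the 7 therefore had to be lower with JQ1 than with FIDAS-5, and the log2 differences ran from -1.25 (F7) to -2.51 (SERPINC1). F10, SERPINF2, SERPINF1 and SERPINA5, which rose with both, were higher with JQ1, and PLAU and SERPIND1, which also rose with both, were lower with JQ1. In the direct comparison, 3 members were higher and 14 lower with JQ1 by at least 2-fold on the log2(TPM + 1) scale (5.05% and 8.15% of all tested genes). PLG was 1 of the 14. Among the members that differed by this much were CPB2 (-3.67), TFPI (-1.98), SERPINF2 (2.09) and SERPINA1 (1.82).

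Other genes of the pathway, not among the members, were read from a list of 24, of which 17 were tested. With JQ1, 8 rose and 3 fell (19.0% and 19.4% of all tested genes), and with FIDAS-5, 6 rose and 1 fell (12.6% and 7.60%). The 3 fibrinogen chains rose with JQ1: FGA, FGB and FGG by 3.38, 3.26 and 3.25 (adjusted p = 1.55e-05, 4.73e-05 and 6.38e-05), and with FIDAS-5 FGA rose by 0.96 (adjusted p = 0.013) while FGB and FGG were not called. Fibrinogen is the substrate of thrombin, the active form of the F2 product, whose message fell with JQ1. A2M, a broad protease inhibitor, rose by 0.82 (adjusted p = 0.00895) with JQ1 and by 2.33 (adjusted p = 9.09e-05) with FIDAS-5. C4BPA, the alpha chain of the protein that carries protein S in plasma, fell with JQ1 (log2 value -2.42, adjusted p = 1.55e-05) and with FIDAS-5 (log2 value -1.06, adjusted p = 0.0016). It averaged 0.131 ± 0.0152 TPM with JQ1, 1.91 ± 0.359 TPM with FIDAS-5 and 5.08 ± 0.934 TPM with vehicle (SD, n = 3 each), and at such levels the log2(TPM + 1) scale understates the change. C4BPB, the gene of the beta chain, also fell with JQ1 (log2 value -1.28, adjusted p = 0.000379). With FIDAS-5, C4BPB went the other way without being called (0.41, adjusted p = 0.106), every FIDAS-5 library lying above every vehicle library.

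Messages of 9 transcription factors known at coagulation promoters were all tested. With JQ1, 7 rose and 1 fell (19.0% and 19.4% of all tested genes). ONECUT1 had 1.72 (adjusted p = 0.00692), FOXA1 1.27 (adjusted p = 0.00928), CEBPA 0.94 (adjusted p = 0.0033) and HNF4A 0.91 (adjusted p = 0.00123), while CEBPB fell (log2 value -0.49, adjusted p = 0.00749). With FIDAS-5, 0 of the 9 were called by limma, where 20.2% of all tested genes were, and 2 had an unadjusted p under 0.05. Whether any of these messages has a part in the members' values was not tested.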

How the data were processed

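Total RNA of 9 Huh7 libraries was sequenced, 3 each with JQ1, FIDAS-5 and vehicle. The authors deposited 1 TPM value for each gene symbol and library, computed with Salmon on hg38 per the submitters' processing notes. The Salmon version, annotation, library strandedness and depth are not given in the sources used here. Protein-coding genes took 27.7% to 34.1% of the TPM of a library.

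All tests used log2(TPM + 1). Genes at 1 TPM or more in at least 3 of the 9 libraries were fitted in limma 3.58.1 (R 4.3.3) with a mean per group over all 9 libraries, 6 residual and 2.86 prior degrees of freedom, no covariate and two-sided tests. P-values were adjusted over all 13573 genes by Benjamini-Hochberg and called under 0.05. The fit was tested on simulated data. Per-library values with standard errors are given for members called against vehicle with a log2 change of at least 1, and for those called between the compounds with opposite signs against vehicle. Other members have ranges or fold changes only.

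Alternatives were a pseudocount of 0.1, no filter, a filter at 5 TPM, median-of-ratios scaling, quantile normalization, protein-coding genes only, only the 6 libraries compared, a replicate block, a moderation trend and leaving out each library. Chosen after seeing the data were subtraction of a lowess fit against transcript GC (alone and with the block) and leaving out replicate 3 of both compounds. Departures of libraries with the same number correlated at 0.26, 0.102 and 0.422 between JQ1 and FIDAS-5. The main fit did not pair libraries by number, and only the replicate block used the numbers, those of the vehicle libraries included. The members, lists and motifs were chosen with earlier results of these data known. A few genes of the lists are not reported here. Gene positions and exon overlaps are from GENCODE v29, and promoters from RefSeq. Figures were drawn with matplotlib 3.10.9 in Python 3.11.15.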

Additional observations from a re-analysis of the deposited data

How the results depend on the processing

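Of the 77 member calls over the 3 comparisons, 61 were kept under every alternative that tested the gene, and no called value changed sign. Genes called with FIDAS-5 against vehicle, 2742, ranged from 1639 (without vehicle replicate 3) to 3290 with 1 library left out (1640 without FIDAS-5 replicate 3), and were 4389 with the GC trend removed and 4719 with the replicate block as well. Members called lower with FIDAS-5, 2, were 1 with median-of-ratios scaling, 1 without replicate 3 of both compounds, and 0 to 2 with 1 library left out. They were 0 by limma without FIDAS-5 replicate 3, where 2 had an unadjusted p under 0.05. Genes called between JQ1 and FIDAS-5, 4726, were 2991 with the 5 TPM filter, which tested 8619 genes. With 1 library left out, members called ranged from 25 to 28 with JQ1, 16 to 24 with FIDAS-5 and 23 to 28 between the compounds. With the replicate block they were 28, 23 and 26, and beside the calls given above the block added CPB2 (adjusted p = 0.0486) and F2RL1 (adjusted p = 0.0434) with FIDAS-5. Departures of same-numbered libraries correlated at -0.0765, 0.0333 and -0.00203 between JQ1 and vehicle and at 0.0373, 0.16 and 0.00539 between FIDAS-5 and vehicle. The block still treated the number as shared by JQ1, FIDAS-5 and vehicle libraries, so its counts against vehicle rest on that pairing. Median-of-ratios scaling, quantile normalization and protein-coding genes only each also called CPB2, F2RL1, F3, F5 and SERPINB1 higher with FIDAS-5. Beside the calls given above, the GC trend's removal added F2RL1 (adjusted p = 0.0141) and SERPINB1 (adjusted p = 0.0167) with FIDAS-5, and a pseudocount of 0.1 added PLG with JQ1 (adjusted p = 0.00833). Of the 34 member values not called, 10 took the other sign somewhere. With FIDAS-5, SERPINA1 was 0.16 after quantile normalization. With the GC trend removed, with or without the block, TFPI was 0.0813, SERPINB9 0.0691 and SERPINH1 -0.25 with FIDAS-5, and F2RL1 0.0203 with JQ1. Leaving out 1 library gave FIDAS-5 values of -0.31 to 0.0950 for TFPI, -0.0124 to 0.109 for SERPINA6, -0.0388 to 0.0939 for SERPINH1 (-0.0254 without FIDAS-5 replicate 1) and -0.19 to 0.0002 for F2R, JQ1 values of -0.29 to 0.17 for F2RL1, and differences between the compounds of -0.11 to 0.0845 for F12, -0.32 to 0.0073 for SERPINE2 and -0.18 to 0.28 for SERPINI1. Without replicate 3 of both compounds TFPI was 0.0950 and F2R 0.0002 with FIDAS-5, F2RL1 0.0891 with JQ1, and SERPINI1 0.15 between them. The cause of these shifts was not tested. Depth is unknown, so low members such as F11, PLG and SERPINA7 carry a counting error that cannot be given.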
